A study of Homo sapiens with 6 samples.

Results

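The 6 mature miRNAs described here are made from hairpins that lie inside the HOX gene clusters, and they are hsa-miR-10a-5p, hsa-miR-10a-3p, hsa-miR-10b-5p, hsa-miR-10b-3p, hsa-miR-196a-5p and hsa-miR-196b-5p. They were chosen by name, and they make up 6 of the 1596 entries of the deposited table of reads per mature miRNA. All 6 had enough reads to be tested, among 758 tested entries. Human melanoma cells were treated for 24 hours with RSL3, a small molecule that inhibits the lipid peroxide-reducing enzyme GPX4 and so induces ferroptosis, or with RSL3 together with IFN-γ, a cytokine released by activated T cells. There were 3 small RNA libraries in each group, so every library came from cells that received RSL3, and the comparison measures what IFN-γ added to it. Libraries of untreated cells or of cells given IFN-γ alone were not analysed here. The sample labels name the cell line as A2058 and the text of the study names A375 for this experiment, both of them established human melanoma lines. Nothing in the labels says that the 3 libraries of a group came from separate cultures, so the p-values reflect only how these libraries varied, and that variation may be technical.

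MicroRNAs are short RNAs that guide Argonaute proteins to messenger RNAs, and the bases next to the 5′ end, the seed, contribute most to the pairing. HOX genes encode the transcription factors that set position along the body axis, and the miR-10 and miR-196 hairpins sit between them and are transcribed in the same direction. Several HOX messengers are known targets of miR-196, and miR-10b has been studied in the invasion and metastasis of tumours. Each hairpin can give a miRNA from both arms, named 5p and 3p, of which the 5p arm is the prevailing one in both families.

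The hairpins were placed by RefSeq on GRCh38.p14, with the same positions in GENCODE 29. MIR10A lies in the HOXB cluster at chr17:48579838-48579947 on the minus strand, in an intron of HOXB3, and overlaps an exon of a HOXB4 transcript. MIR10B lies in the HOXD cluster at chr2:176150303-176150412 on the plus strand, in an intron of HOXD3 and 810 bp from HOXD4. The mature miR-196a-5p can come from 2 hairpins. MIR196A1 is at chr17:48632490-48632559 on the minus strand, in an intron of a HOXB7 transcript, and MIR196A2 is at chr12:53991738-53991847 on the plus strand, in an intron of HOXC6 between HOXC10 and HOXC9. Reads of the mature miRNA cannot tell these sources apart. MIR196B lies in the HOXA cluster at chr7:27169480-27169563 on the minus strand, where it overlaps an exon of a HOXA9 transcript and, on the opposite strand, an exon of HOXA10-AS. The hairpins that can give the members lie in all 4 HOX clusters, with HOXC entering only through MIR196A2.

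The mature sequences from RefSeq are shown, for all members but hsa-miR-10b-5p, because a shared seed and near-identical letters bear on how the paralogs can be read. Capitals mark the seed, bases 2 to 8.
hsa-miR-10a-5p: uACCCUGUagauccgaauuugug
hsa-miR-10a-3p: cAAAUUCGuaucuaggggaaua
hsa-miR-10b-3p: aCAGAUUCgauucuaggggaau
hsa-miR-196a-5p: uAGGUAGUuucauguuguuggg
hsa-miR-196b-5p: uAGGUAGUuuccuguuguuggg
The 2 miR-196 miRNAs are each 22 nt long and differ by 1 substitution, A12C, counted from 1 at the 5′ end of miR-196a-5p with its base first. They share their seed, and no other entry of the RefSeq table had it at bases 2 to 8. The 7 letters of the miR-196 seed also occur in let-7a-5p, but there they start at base 3 instead of base 2. The 5p arms of miR-10a and miR-10b are known as close paralogs with a common seed. The sources used here do not give how a read that fits several miRNAs was counted, so the separate values of miR-10a-5p and miR-10b-5p, and of miR-196a-5p and miR-196b-5p, are uncertain, and the sums of each pair are given further on.

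The libraries held 4897890 to 6513382 counted reads in the RSL3 group and 4383940 to 5367150 in the combined treatment group. All pairs of libraries differed by more than counting noise. TMM factors, which scale each library to the bulk of its miRNAs, were 0.861 to 0.913 in the RSL3 group and 0.944 to 1.33 in the combined treatment group, so the scaling itself differed between the groups. Levels are given below as scaled read counts (CPM, edgeR's unit, which relates a count to the scaled total of its library). A mature miRNA gives 1 read whatever its length, so CPM can be compared between miRNAs, apart from differences in how well each one is cloned. Markers of the melanocyte lineage were present, with 1210 to 2269 reads of miR-211-5p and 722 to 1968 of miR-204-5p in every library, and 60 to 434 of miR-514a-3p, whereas miR-506-3p, miR-508-3p and miR-509-3p were at 0 to 17 reads.

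The 6 members together took 1.55% to 1.77% of the reads of an RSL3 library and 0.917% to 1.12% of a combined treatment library. All 6 log2 fold changes were below 0, with a median of -0.63, though those of miR-10b-3p (0.0728) and miR-196a-5p (0.17) were above 0 with libraries scaled by their totals alone. Among all tested miRNAs 391 of 758 were below 0, with a median of -0.04. At an adjusted p under 0.05 over all tested miRNAs, 1 member fell, miR-10a-5p, 0 rose and 5 did not pass. In the same fit edgeR's quasi-likelihood test called 4.75% of all 758 tested miRNAs in either direction, 17 lower and 19 higher. With the replicate number as a block, 2 members fell, miR-10a-5p and miR-10b-5p. That fit called 43 of all 758 tested miRNAs lower (5.67%) and 39 higher. For 3 of the 6 members all RSL3 libraries lay above all combined treatment libraries in CPM, as for 14.8% of all tested miRNAs.

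hsa-miR-10a-5p was the most abundant member and ranked 14 of all entries by mean CPM. Its CPM was 13532, 12138 and 11942 in RSL3 replicates 1, 2 and 3, and 7068, 5087 and 5057 in combined treatment replicates 1, 2 and 3. Every combined treatment library lay below every RSL3 library, and the gap between the groups was wider than the range within either. The mean was 12537 ± 867 CPM (SD, n = 3) with RSL3 and 5737 ± 1152 CPM (SD, n = 3) with the combined treatment, and the log2 fold change was -1.13 (SE 0.227, 95% interval -1.63 to -0.62) with an edgeR adjusted p of 0.0315. It was the only member with a fold under 0.5 and an unadjusted p under 0.05, which 7.52% of all tested miRNAs met. As a share of all reads of a library, with no scaling, it took 1.16%, 1.11% and 1.05% in the RSL3 replicates and 0.667%, 0.676% and 0.584% in the combined treatment replicates, so the groups did not overlap on this scale either. The call was lost on leaving out RSL3 replicate 1 (edgeR adjusted p = 0.172), combined treatment replicate 2 (0.0912) or combined treatment replicate 3 (0.0920), while the log2 fold change stayed between -1.32 and -1.06 whichever library was left out.

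hsa-miR-10b-5p, from the HOXD cluster, ranked 32 of all entries. It had 6372, 5674 and 5094 CPM in RSL3 replicates 1, 2 and 3 and 4324, 2311 and 2407 CPM in combined treatment replicates 1, 2 and 3. The groups did not overlap, but combined treatment replicate 1 stood closer to the RSL3 libraries than to the other combined treatment libraries. Its mean was 5713 ± 640 CPM (SD, n = 3) with RSL3 and 3014 ± 1135 CPM (SD, n = 3) with the combined treatment. The log2 fold change of -0.92 (SE 0.280, 95% interval -1.54 to -0.30) did not pass the test (edgeR adjusted p = 0.0750). With the replicate block it was -0.98 (SE 0.215) and passed (edgeR adjusted p = 0.0375). Without combined treatment replicate 1 it was -1.29 and passed as well (edgeR adjusted p = 0.00545), so the call changed with that 1 library.

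**Figure D1:**
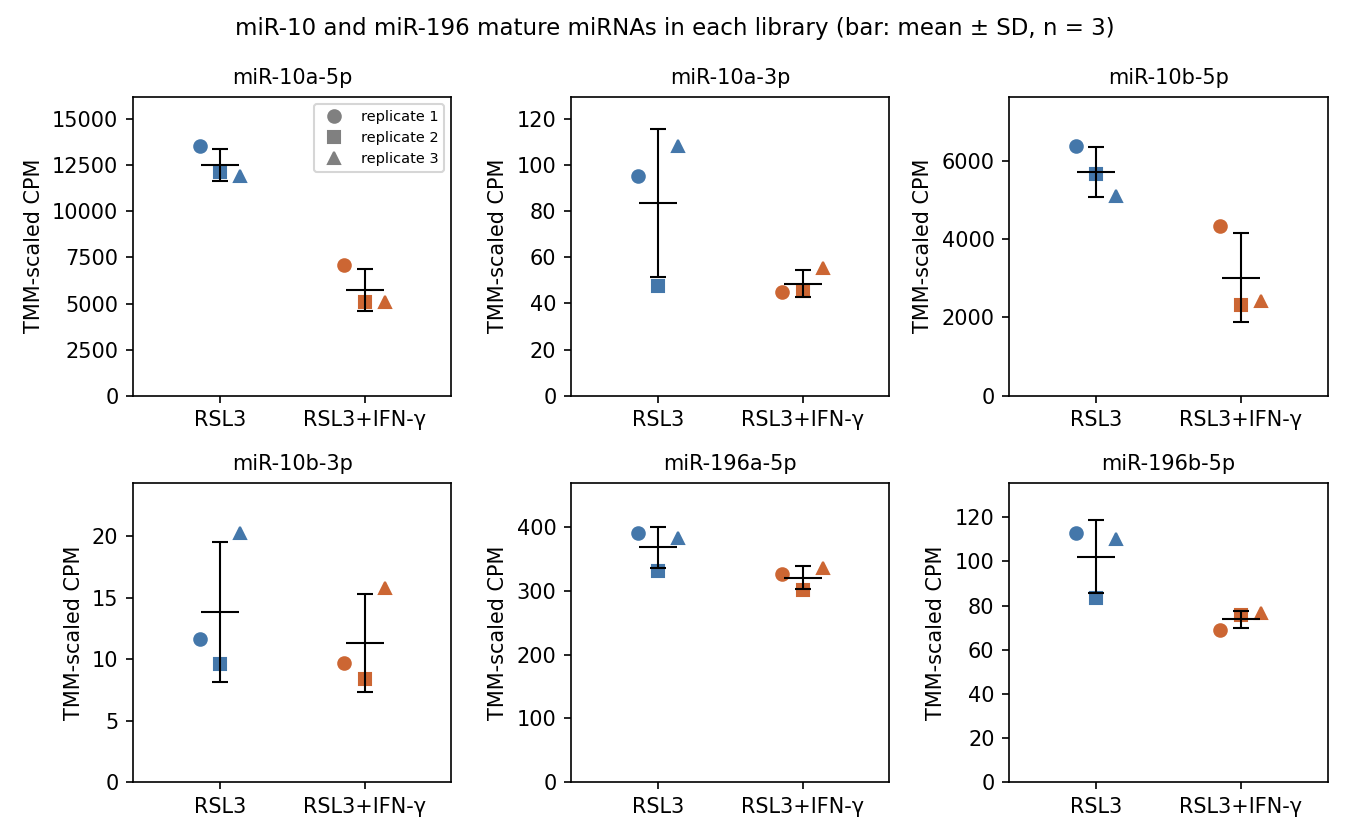
Levels of the 6 miRNAs in each library, in TMM-scaled CPM on linear axes that start at 0, for RSL3 (left, blue) and RSL3 with IFN-γ (right, orange), where marker shapes stand for replicate numbers and the bars for mean ± SD of 3 libraries. For miR-10a-5p, miR-10b-5p and miR-196b-5p all combined treatment libraries lie below all RSL3 libraries, whereas the groups overlap for miR-10a-3p, miR-10b-3p and miR-196a-5p.

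The 3p arms are the opposite strands of the same hairpins, and both were scarce. hsa-miR-10a-3p was counted at 484, 212 and 618 reads in RSL3 replicates 1, 2 and 3 and at 186, 266 and 343 reads in combined treatment replicates 1, 2 and 3. In CPM these were 95.5, 47.4 and 108 against 45.0, 45.4 and 55.4. RSL3 replicate 2 sat among the combined treatment libraries, whereas the other two RSL3 libraries were well above them. The log2 fold change was -0.78 (SE 0.312, 95% interval -1.48 to -0.09), which did not pass (edgeR adjusted p = 0.148). Without RSL3 replicate 2 it was -1.08 and passed (edgeR adjusted p = 0.0359). With a trend with the GC content of the mature sequence removed it was -0.27 (edgeR adjusted p = 0.591).

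hsa-miR-10b-3p had 59, 43 and 116 reads in RSL3 replicates 1, 2 and 3 and 40, 49 and 98 reads in combined treatment replicates 1, 2 and 3. Replicate 3 was the highest in both groups, and the groups overlapped over nearly their whole range. The mean was 13.9 ± 5.68 CPM (SD, n = 3) with RSL3 and 11.3 ± 3.98 CPM (SD, n = 3) with the combined treatment. Its log2 fold change was -0.30 with a 95% interval of -1.14 to 0.55 (edgeR adjusted p = 0.670), so at this depth neither a fall of the size seen for miR-10a-5p nor a small rise was excluded by the interval.

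The 2 miR-196 miRNAs share a seed and come from different HOX clusters. hsa-miR-196a-5p had 392, 332 and 383 CPM in RSL3 replicates 1, 2 and 3 and 326, 301 and 335 CPM in combined treatment replicates 1, 2 and 3. RSL3 replicate 2 lay within the range of the combined treatment libraries. The mean was 369 ± 32.3 CPM (SD, n = 3) with RSL3 and 321 ± 17.8 CPM (SD, n = 3) with the combined treatment, and the log2 fold change of -0.20 (SE 0.210, 95% interval -0.67 to 0.26) did not pass (edgeR adjusted p = 0.591). With libraries scaled by their totals alone this log2 fold change was 0.17, so the sign of this small difference depended on the scaling.

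hsa-miR-196b-5p had 113, 83.2 and 110 CPM in RSL3 replicates 1, 2 and 3 and 69.1, 75.5 and 76.5 CPM in combined treatment replicates 1, 2 and 3. In CPM all combined treatment libraries were below all RSL3 libraries, while as unscaled shares of library reads the groups overlapped. The mean was 102 ± 16.5 CPM (SD, n = 3) with RSL3 and 73.7 ± 4.01 CPM (SD, n = 3) with the combined treatment. The log2 fold change of -0.47 (SE 0.227, 95% interval -0.97 to 0.03) did not pass (edgeR adjusted p = 0.221). By mean CPM, the order of the members within the RSL3 group was miR-10a-5p, miR-10b-5p, miR-196a-5p, miR-196b-5p, miR-10a-3p and miR-10b-3p, and the neighbours miR-196b-5p and miR-10a-3p overlapped between libraries. In the combined treatment group the order was the same and no neighbours overlapped.

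The paralogs of each family were also compared within a library, which leaves library scaling out. miR-10a-5p made up 68.0%, 68.1% and 70.1% of the reads of both miR-10 5p arms in RSL3 replicates 1, 2 and 3 and 62.0%, 68.8% and 67.8% in combined treatment replicates 1, 2 and 3. Combined treatment replicate 1 was the lowest, with an exact 95% interval of 61.6% to 62.5%, and RSL3 replicate 3 the highest, with one of 69.8% to 70.4%, and both intervals, which cover counting error alone, lay apart from those of the other libraries. The mean share was 68.7 ± 1.18% (SD, n = 3) and 66.2 ± 3.62% (SD, n = 3), a difference of -2.56 percentage points (two-sided exact permutation p = 0.4). miR-196a-5p made up 77.6%, 79.96% and 77.6% of the reads of both miR-196 5p arms with RSL3 and 82.5%, 79.9% and 81.4% with the combined treatment. These groups overlapped slightly, and the means differed by 2.90 percentage points (two-sided exact permutation p = 0.2). The smallest two-sided p that 3 libraries against 3 allow is 0.1, so these shares could not have passed a threshold of 0.05.

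When the reads of the paralogs were added and the fit was repeated, the 2 miR-10 5p arms together had a log2 fold change of -1.07 (SE 0.243, 95% interval -1.60 to -0.53) and fell (edgeR adjusted p = 0.0354). The sum does not depend on how reads were divided between miR-10a-5p and miR-10b-5p. Reads counted for both or for neither would still affect it. The 2 miR-196 5p arms together had a log2 fold change of -0.26 (SE 0.212, 95% interval -0.73 to 0.21) and did not pass (edgeR adjusted p = 0.476).

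The share of the 3p arm tells whether both arms of a hairpin moved alike. For miR-10a the 3p arm was 0.701%, 0.389% and 0.898% of the reads of both arms in RSL3 replicates 1, 2 and 3 and 0.632%, 0.885% and 1.08% in combined treatment replicates 1, 2 and 3. For miR-10b the 3p arm was 0.182%, 0.169% and 0.397% with RSL3 and 0.223%, 0.361% and 0.653% with the combined treatment. The 3p share of miR-196a was larger, at 12.2%, 17.9% and 12.3% with RSL3 and 18.3%, 16.5% and 21.7% with the combined treatment. The reads of miR-196a-5p can come from MIR196A1 and MIR196A2, so the 3p share of miR-196a does not describe a single hairpin. The groups overlapped for miR-10a, miR-10b and miR-196a. On the log2 scale of 3p over 5p reads, the combined treatment minus RSL3 was 0.44 (95% interval -0.54 to 1.42) for miR-10a, 0.70 (95% interval -0.47 to 1.88) for miR-10b and 0.51 (95% interval -0.32 to 1.33) for miR-196a. None passed in limma, with adjusted p of 0.610, 0.485 and 0.467, where 0% of 181 hairpins were called and 35 had an unadjusted p under 0.05. The intervals leave room for a fall of the 3p arm as large as that of the 5p arm and for a smaller one.

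**Figure D2:**
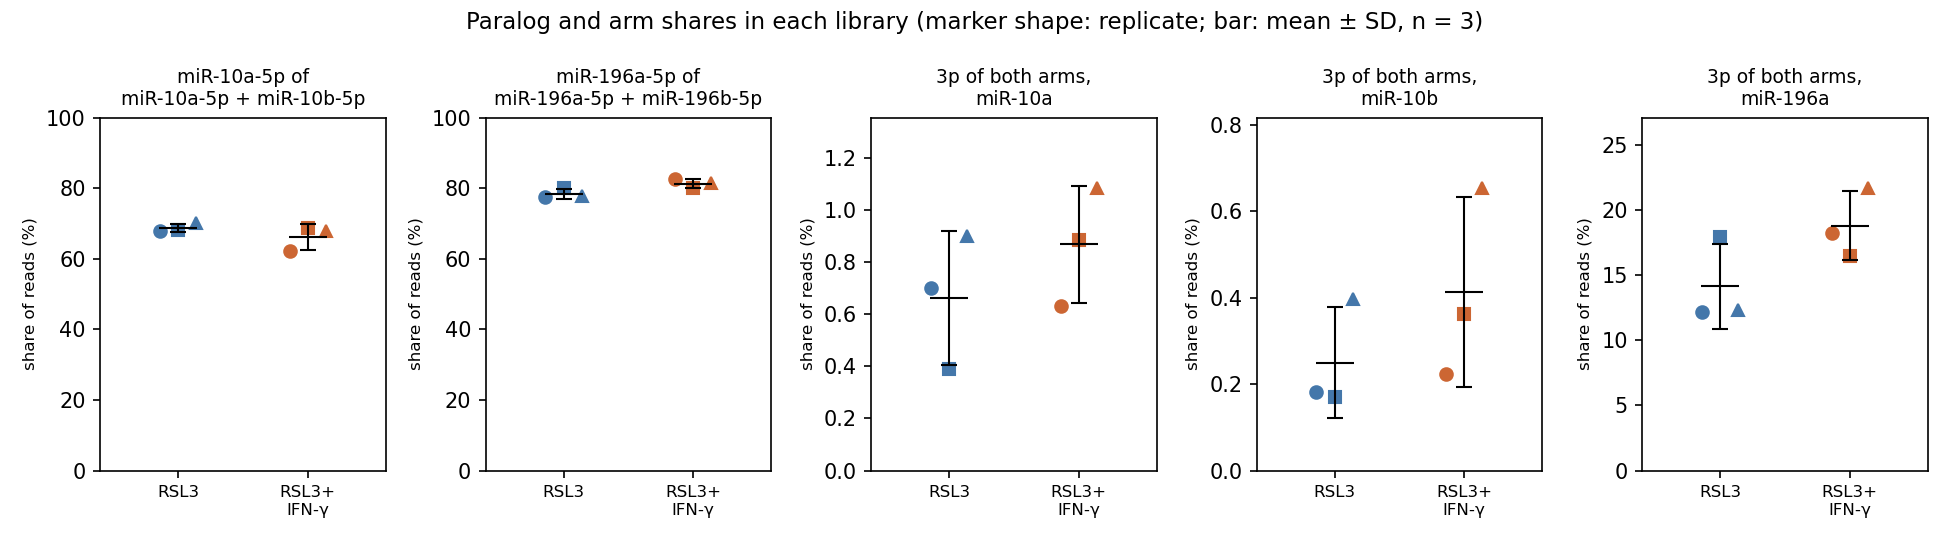
Shares of reads in each library, in percent on linear axes that start at 0, for miR-10a-5p and miR-196a-5p among the reads of both paralogs and for the 3p arm among the reads of both arms of miR-10a, miR-10b and miR-196a, with marker shapes for replicate numbers and bars for mean ± SD of 3 libraries. RSL3 (blue) and RSL3 with IFN-γ (orange) overlap in every panel.

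Of the 4 other entries of HOX cluster hairpins, 3 were tested, 0 rose and 0 fell, with 2 log2 fold changes above 0, 1 below and a median of 0.32. The 3p arm miR-196a-3p had 60.3 ± 10.6 CPM (SD, n = 3) with RSL3 and 75.1 ± 16.9 CPM (SD, n = 3) with the combined treatment. Its log2 fold change was 0.32 (SE 0.257, edgeR adjusted p = 0.472). MIR615 lies in the HOXC cluster at chr12:54033950-54034045, in introns of HOXC5 and HOXC4. Its miR-615-3p had a log2 fold change of 0.52 (SE 0.314, edgeR adjusted p = 0.311) and its miR-615-5p one of -0.67 (SE 0.356, edgeR adjusted p = 0.263). miR-196b-3p, at 0 to 7 reads a library, was not tested.

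The miR-10 family is related in sequence to the miR-99, miR-100 and miR-125 miRNAs, whose hairpins are not in HOX clusters. All 5 of their 5p arms were tested, 0 rose and 0 fell, and their log2 fold changes ran from -0.18 for miR-100-5p to 0.12 for miR-125b-5p with a median of -0.15. The log2 ratio of miR-10a-5p reads to the summed reads of these relatives, a measure within each library that was added after the data had been seen, was -2.39 ± 0.292 (SD, n = 3) with RSL3 and -3.39 ± 0.312 (SD, n = 3) with the combined treatment. The groups did not overlap, and the difference of -1.0002 had a two-sided exact permutation p of 0.1, the smallest possible here. For miR-10b-5p the difference was -0.84 and the groups overlapped (two-sided exact permutation p = 0.2). Within each of the 3 replicate numbers this ratio was lower with the combined treatment for both miR-10a-5p and miR-10b-5p, where the smallest two-sided exact p for 3 pairs is 0.25. For miR-196a-5p and miR-196b-5p the differences were -0.05 and -0.32, with two-sided exact permutation p of 0.8 and 0.2.

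**Figure D3:**
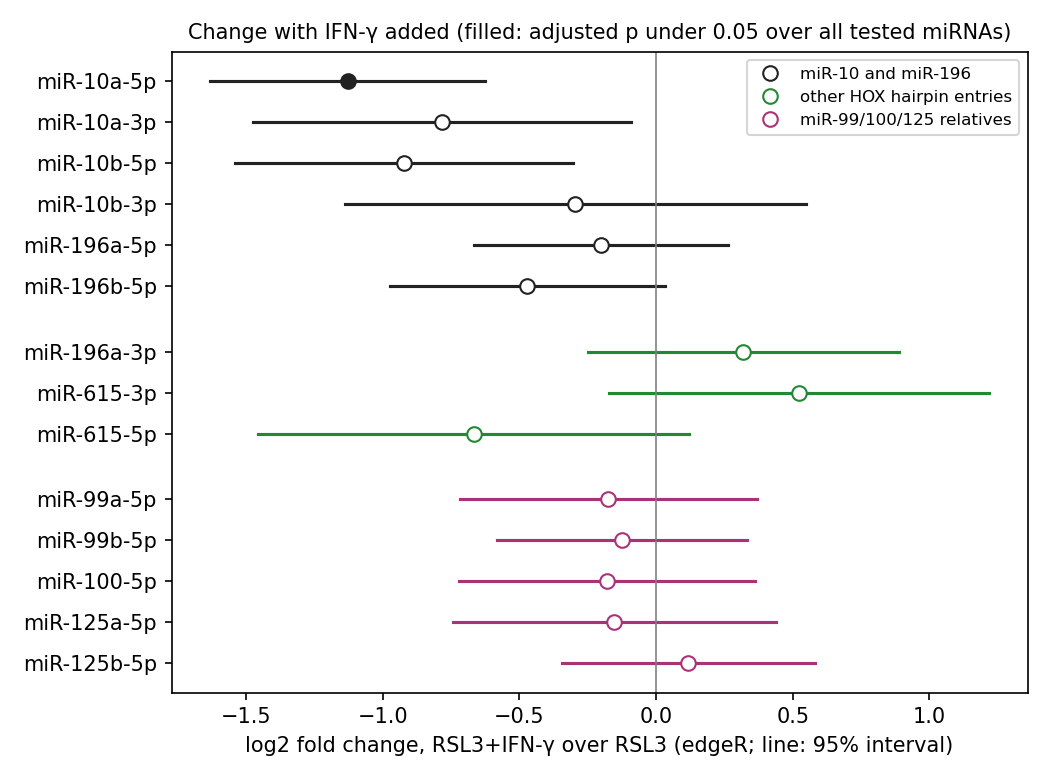
Log2 fold change of RSL3 with IFN-γ over RSL3 from edgeR, with 95% intervals, for the 6 members (black), the other tested entries of HOX cluster hairpins (green) and the miR-99, miR-100 and miR-125 relatives (purple), where a filled point has an adjusted p under 0.05. miR-10a-5p at -1.13 is the only filled point, and the relatives lie between -0.18 and 0.12.

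Scaling moved all miRNAs together. Over all tested miRNAs the median log2 fold change was -0.04 under TMM, -0.13 under upper-quartile factors and 0.33 when libraries were scaled by their totals alone. Relative to that median, under 4 scalings, miR-10a-5p was at -1.12 to -1.09, miR-10b-5p at -0.94 to -0.88 and miR-10a-3p at -0.75 to -0.74 on the log2 scale. The others were nearer to the median, with miR-196b-5p at -0.44 to -0.42, miR-10b-3p at -0.26 to -0.25 and miR-196a-5p at -0.17 to -0.16. Taking the median away removes most of a shift common to all miRNAs by construction, so these ranges give the members' distance from the median and no test of it.

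**Figure D4:**
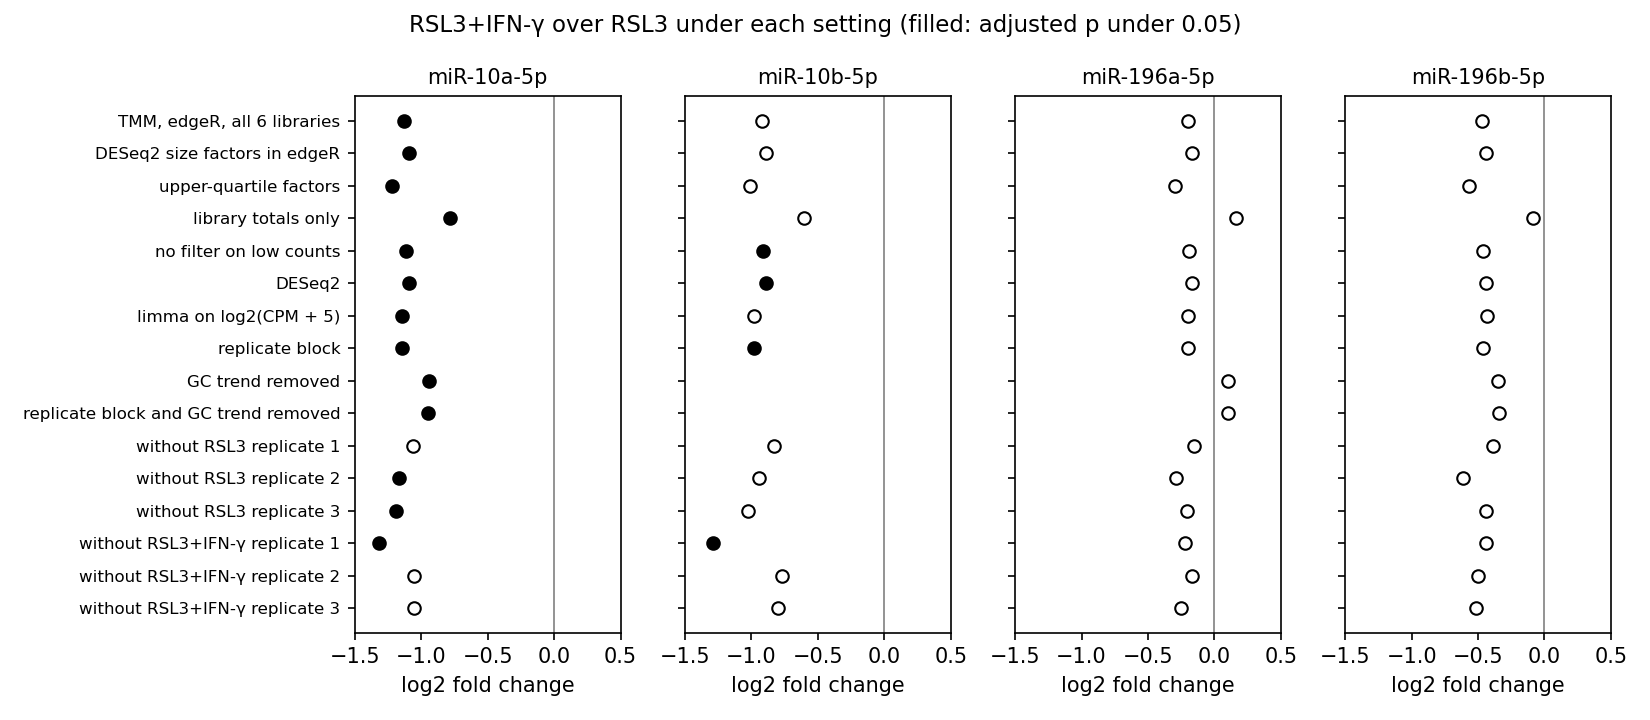
Log2 fold change of RSL3 with IFN-γ over RSL3 for the 4 members that are 5p arms under each way of processing the counts, where a filled point has an adjusted p under 0.05. miR-10a-5p stays between -1.32 and -0.78, miR-10b-5p was not evaluated with the GC trend removed, and miR-196a-5p is above 0 with library totals and with the GC trend removed.

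Across the 6 libraries, log2 CPM of miR-10a-5p and miR-10b-5p had a Pearson r of 0.962, and miR-196a-5p and miR-196b-5p one of 0.909. The arms of a hairpin followed each other less closely, with 0.639 for miR-10a and 0.101 for miR-10b. Only 40 to 116 reads a library were counted for miR-10b-3p, and the part of counting noise in these values was not tested. miR-10a-3p was closer to miR-196b-5p, at 0.948, and to miR-196a-5p, at 0.937. These are descriptions over 6 points that share libraries, scaling and the difference between treatments. Among the 204 others that averaged 100 CPM or more, those with a pattern most like miR-10a-5p were miR-106b-5p (r = 0.984), miR-34c-5p (0.978) and miR-7-5p (0.968). For miR-10b-5p they were miR-500a-5p (r = 0.993), miR-7-5p (0.974) and miR-361-3p (0.970). For miR-196a-5p they were let-7g-5p (r = 0.981), miR-140-5p (0.974) and miR-340-5p (0.968), and for miR-196b-5p, among 205, miR-18a-5p (0.968), miR-16-5p (0.960) and miR-140-5p (0.960).

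Marker miRNAs of other cell types were also counted, and none of them passed the test. The summed level of 5 blood cell markers was 101 to 168 CPM with RSL3 and 84.1 to 328 CPM with the combined treatment, of which 4 were tested, 0 rose and 0 fell. Most of this sum was miR-451a, at 74.7 to 318 CPM over all libraries, while the other blood cell markers were each at 0.161 to 6.04 CPM. The 4 markers of fibroblasts and mesenchyme summed to 244 to 1078 CPM and 255 to 429 CPM, and all 3 tested had log2 fold changes below 0 with a median of -0.70. The 4 markers of epithelium and keratinocytes summed to 87.5 to 130 CPM and 81.5 to 102 CPM, with 3 tested and 0 called. Of 6 markers of melanocytes and melanoma, 3 were tested and 1 fell, miR-514a-3p, with a log2 fold change of -1.38 (edgeR adjusted p = 0.0374), and their sum was 577 to 744 CPM and 490 to 578 CPM. No marker was at 0 in all libraries. Their part in the values of the members was not tested, and a lower level per cell and a smaller share of cells that express a miRNA cannot be told apart in bulk libraries.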

How the data were processed

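Small RNA libraries of melanoma cells treated with RSL3 or with RSL3 and IFN-γ (3 each) were grouped by their labelled treatment. The authors deposited, for each mature miRNA, raw read counts and a normalized signal per library, with their own log2 fold change, linear fold and p-value. Only the counts were used here. Bowtie 1.1.1, bcl2fastq, GRCh38 and edgeR are named in the submitters' processing notes. In the sources used here neither the miRBase release nor the allowed mismatches are given. The labels name a small RNA library kit and the study's methods a directional RNA kit. The test was the two-sided quasi-likelihood test of edgeR 4.0.16 with TMM scaling (R 4.3.3) over the 758 of 1596 miRNAs kept by its filter (minimum count 10, minimum total 15), with Benjamini-Hochberg adjustment over all tested. Arm ratios, with 0.5 reads added to each arm, were tested by limma 3.58.1 for hairpins averaging 10 or more reads per arm. Intervals are at 95%. DESeq2 1.42.0 was an alternative, as were other scalings, no filter, removal of a trend with the GC content of the mature sequence, a replicate block and leaving out each library. Replicate numbers come from the sample titles, and deviations of libraries with the same number correlated at 0.233, 0.221 and 0.211 across miRNAs, all above 0.1. The named miRNAs were the members, the other HOX hairpin entries, the miR-99, miR-100 and miR-125 relatives, entries sharing a member's seed, and the 3 miRNAs most correlated with each 5p arm. The members and lists were chosen with earlier results of these data known. Scripts were tested on simulated data. Sequences and hairpin positions are from RefSeq (GRCh38.p14) and gene models from GENCODE 29.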

Additional observations from a re-analysis of the deposited data

How the results depend on the processing

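Depth was lowest for miR-10b-3p, at 40 to 116 reads a library. The number of members called was 1 with RLE, upper-quartile and library-total scaling, limma and the GC trend removed (where miR-10b-5p, with no sequence used here, was not evaluated), and 2 without a filter, with DESeq2 and with the replicate block, and it ran from 0 to 2 on leaving out 1 library. The 36 calls over all tested miRNAs became 71 with library totals (60 higher and 11 lower), 106 without a filter, 96 with DESeq2, 82 with the replicate block, 22 with the GC trend removed and 24 with the replicate block and the GC trend removed, and ran from 0 to 95 on leaving out 1 library, with 0 (124 at an unadjusted p under 0.05 in edgeR) without RSL3 replicate 1, 22 without RSL3 replicate 3, 55 without RSL3 replicate 2, 95 without combined treatment replicate 1, 6 without combined treatment replicate 2 and 7 without combined treatment replicate 3. The log2 fold change of miR-10a-5p was below 0 under all 15 alternatives. That of miR-10b-5p was below 0 under all 13, from -1.29 to -0.61, and also passed in edgeR without a filter (adjusted p = 0.0187) and in DESeq2 (0.0417). The direction turned for miR-10b-3p with library totals (0.0728), with the GC trend removed (0.00395), with the replicate block and the GC trend removed (0.0171) and without RSL3 replicate 3 (0.0559, in a range of -0.640 to 0.0559 on leaving out 1 library), and for miR-196a-5p with library totals (0.17), with the GC trend removed (0.10) and with the replicate block and the GC trend removed (0.10). The cause was not tested. The arm ratios of miR-10a and miR-10b kept their direction and passed no test under the alternatives run for them. For the arm ratio of miR-196a only the replicate block was run as an alternative. With it the log2 difference was 0.51 and did not pass (limma adjusted p = 0.492). The paralog shares also kept their direction under the alternatives. Their exact tests on so few libraries could not have passed a threshold of 0.05. The replicate block changed no other member's call.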

Other observations

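The seeds shown above were also searched for, after the data had been seen, in the longest 3′ UTR of each gene of GENCODE 29 on the transcribed strand. The letters that pair with the miR-196 seed, ACTACCT, occurred in 9 of 39 HOX genes (23.1%) and in 1368 of all 18954 protein-coding genes searched (7.22%), at 0.327 and 0.0441 per kb. HOXA7 held 4 of them, and HOXA9 and HOXC8 held 2 each. The letters that pair with the miR-10a-5p seed, ACAGGGT, occurred in 3 of 39 HOX genes (7.69%) and in 2440 of 18954 genes (12.9%). Per kb these were 0.07 and 0.0889. Among HOX genes the stretch with the most pairing to miR-196a-5p over its whole length was in HOXB8, at position 411 of the 3′ UTR, with 21 Watson-Crick pairs and 1 G:U pair over 22 nt. It is shown because it pairs beyond the seed, and the capital marks the base of the G:U pair. That pair lies within the seed, so the stretch does not hold ACTACCT, and HOXB8 was not among the HOX genes counted above.
HOXB8: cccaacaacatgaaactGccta
With miR-196b-5p the same stretch has 20 Watson-Crick pairs and 1 G:U pair, and the base that differs between the paralogs is unpaired. A match is a description of letters, and no messenger RNA was measured in these libraries.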
